A study of Mus musculus with 13 samples.

Results

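DNA replication and nucleotide synthesis genes were followed in mouse brain tumors and in normal brain. The set holds 42 genes of the 55416 in a table of read counts. They were chosen by name, and GENCODE M21 (GRCm38) held the Ensembl identifiers of all 42, each taken with any gene whose exons overlap its own on the opposite strand. PDGFB tumors (n = 5, genotype PDGFB-shP53) arose after a lentivirus had carried PDGFB, a platelet-derived growth factor, and a short hairpin RNA against p53 into motor cortex. RAS tumors (n = 5, genotype HrasV12-shp53) arose from a virus with HRasV12, an oncogenic form of the GTPase HRas, and a hairpin against p53. Both kinds were made in CNP-Cre mice (allele Cnptm1(cre)Kan), in which the oligodendrocyte gene Cnp drives Cre recombinase. GFP+ tumor tissue was collected at the clinical endpoint from 5 mice of each kind. Normal brain tissue (n = 3, genotype WT) formed the third group, and its labels give neither a brain region nor a number of animals. A protocol line speaks of normal tissue cut away from GFP+ tumor, and it does not say whether these 3 samples are that tissue. No age is given for any group, and the labels name tissue, with no sort of cells.

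Copying a genome starts at origins, where the origin recognition complex (ORC), Cdc6 and Cdt1 load the ring-shaped MCM helicase before S phase. Cdc45 and the GINS complex then switch the helicase on, DNA polymerase alpha with its primase lays down primers, and the sliding clamp PCNA, opened and closed by replication factor C (RFC), holds the copying polymerases on the template. Ribonucleotide reductase, thymidylate synthase and thymidine kinase supply the deoxynucleotides. Most of these genes are transcribed around the G1 to S transition under E2F factors, and their RNA is low in tissue whose cells rarely divide, such as adult brain.

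Each library had 529162 to 643055 reads counted for genes, which was 3.76% to 4.21% of its reads; reads counted for no gene made up 84.5% to 87.3%. Genes with an exon opposite them made up 17.1% of the genes with a position and held 84.0% of the counted reads. They had 187 reads per kb of exon over all libraries, against 12.5 for genes with no exon opposite. Whether the library kit kept strand is not stated, and neither is the strand setting of the count. Whether the count read the strand opposite to the transcripts was not tested. The row of a gene with an exon opposite may therefore hold reads of its antisense partner. The members are therefore given in 2 classes, 29 with no exon opposite and 13 with one. Rows of the 29 may hold only part of the reads of their own transcripts. The limit on strand thus applies to their levels and folds too. Trp53, the target of the hairpin, had 1 to 2 reads in PDGFB tumors, 0 to 5 in RAS tumors and 0 to 4 in normal brain, too few to check the knockdown. Pdgfb had 4 to 21, 1 to 4 and 3 to 6 reads in the same groups, and Hras 4 to 16, 9 to 25 and 16 to 19. The row of Hras was not higher in RAS tumors than in normal brain (log2 -0.50, adjusted p = 0.286 by edgeR) and was lower in PDGFB tumors (-1.15, adjusted p = 0.0272), so it does not show the RAS label, and whether reads of the viral HRasV12 would be counted in it is not stated.

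The summed reads of replication genes with no exon opposite lay higher in both kinds of tumor than in normal brain. They came to 243 to 529 CPM (counts of a gene in each 1000000 reads counted for genes) in PDGFB tumors, 195 to 277 CPM in RAS tumors and 46.0 to 83.2 CPM in normal brain. The sums of both tumor groups did not overlap those of normal brain. Of the 29 genes, 11 had no read in any normal library, a count that was not set against the share over all genes. The normal group held 1721465 counted reads, against 3069324 in PDGFB tumors and 3080723 in RAS tumors, so a low gene is more easily missed there. Members with an exon opposite summed to 3247 to 4272 CPM in PDGFB tumors, 3714 to 4751 CPM in RAS tumors and 3682 to 3825 CPM in normal brain, and these ranges overlapped. In bulk tissue, fewer cells of a type and less RNA per cell cannot be told apart.

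**Figure D1:**
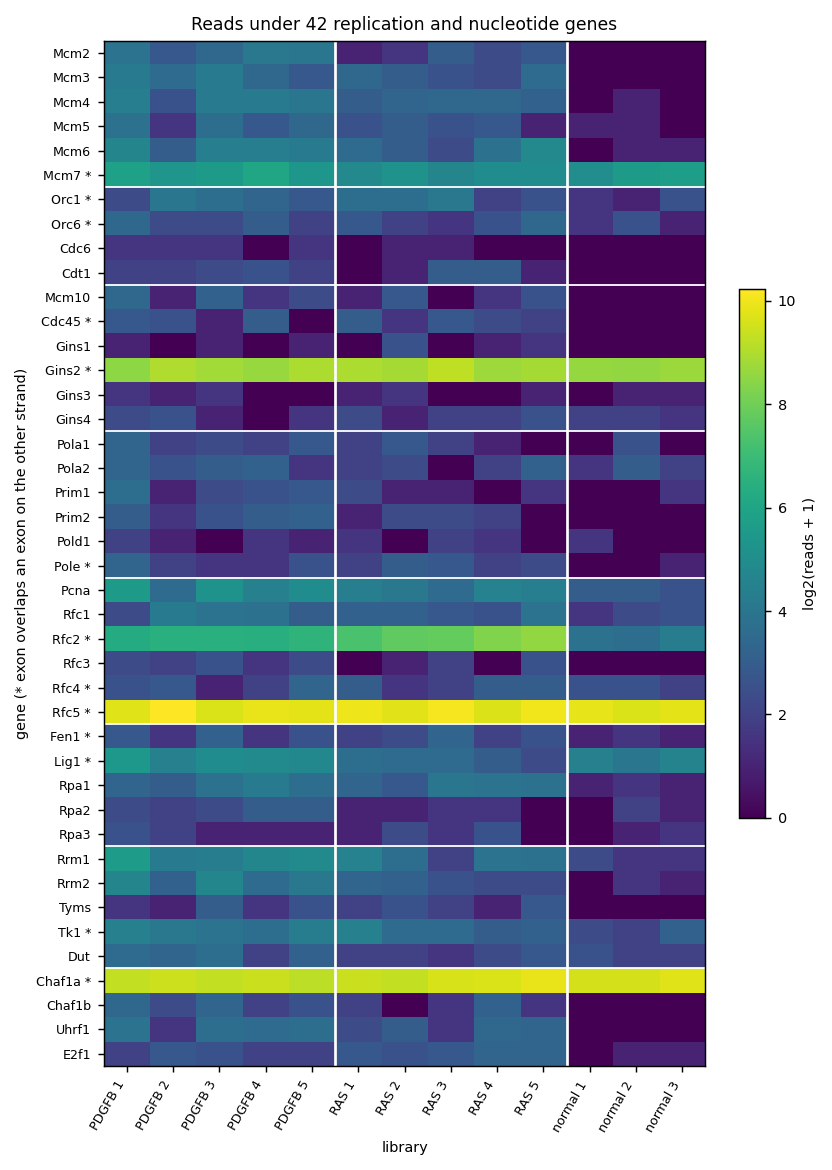
Reads of each of the 42 genes (rows, grouped by role with white lines between groups) in each of the 13 libraries (columns), as log2(reads + 1); a star marks a gene with an exon on the other strand. Most genes without a star are dark in the 3 normal libraries, while the starred Gins2, Rfc5 and Chaf1a are bright in every library.

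Counts were tested for every gene at once (edgeR quasi-likelihood test, two-sided, p adjusted by Benjamini-Hochberg over 7722 genes that passed a filter on low counts), and a gene was called at an adjusted p under 0.05. Of the 42 members 19 passed the filter, 11 with no exon opposite and 8 with one. Between PDGFB tumors and normal brain, 12 of the 19 were called higher, where 20.2% of all genes tested were, and 1 was called lower, where 25.1% were. Between RAS tumors and normal brain, 12 were called higher (26.9% of all genes tested) and 2 lower (29.3%). Both comparisons use the same 3 normal libraries. A low gene can pass the filter through the group in which it is high, so the fit was also run with no filter, in which all 42 members entered. Then 21 of 42 were called higher and 0 lower in PDGFB tumors (8.37% and 9.69% of 23301 genes), and 20 higher and 1 lower in RAS tumors (11.6% and 12.9%). The median log2 fold change of the 42 in that fit was 2.29 in PDGFB tumors and 1.87 in RAS tumors, against 0.026 and 0 for all genes in it, and it takes in genes with no read in normal brain, whose fitted value is no bound.

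With no filter, 17 of the 29 members with no exon opposite were called higher and 0 lower in PDGFB tumors, where 5.42% and 6.78% of all genes of that class were. In RAS tumors 16 of the 29 were higher and 0 lower (8.8% and 9.16%). Of the 13 members with an exon opposite, 4 were called higher and 0 lower in PDGFB tumors (14.1% and 15.5% of the genes of that class), and 4 higher and 1 lower in RAS tumors (17.1% and 20.3%). Of the 8 of these 13 that passed the filter, 2 were higher and 1 lower in PDGFB tumors (21.9% and 26.5% of the genes of that class), and 2 higher and 2 lower in RAS tumors (26.5% and 30.9%), which does not set them apart from their class. The CPM of PDGFB tumors and normal brain did not overlap for 20 higher members and 1 lower member of the 42 (11.6% and 12.2% of the 23301 genes). For RAS tumors against normal brain it was 14 and 1 (11.4% and 14%). By limma-voom 5 of the RAS calls were lost, those of Mcm5, Orc1, Pcna, Rrm1 and Rrm2 (adjusted p = 0.107, 0.135, 0.0746, 0.0799 and 0.0568).

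**Figure D2:**
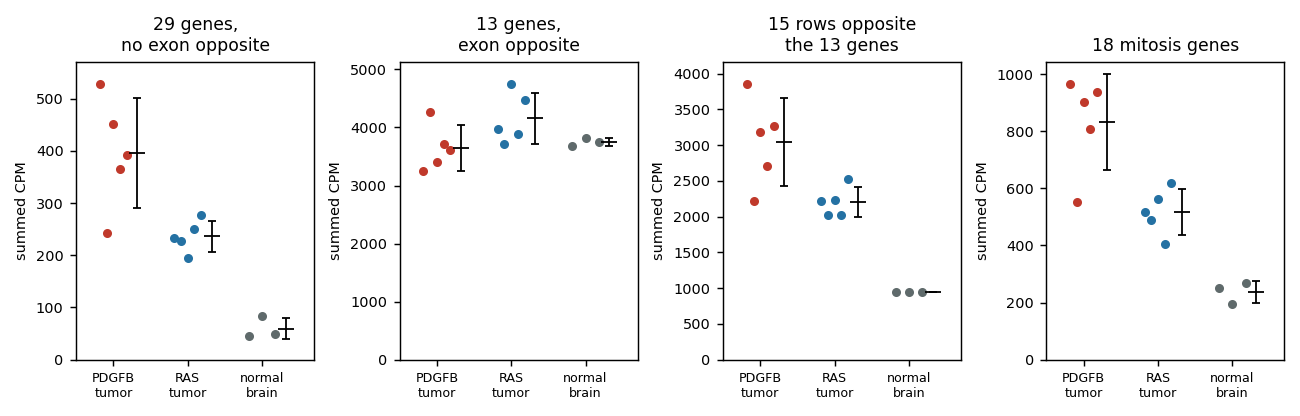
Summed CPM in each library (points) with the mean and SD of each group (bars), for the 29 members with no exon opposite, the 13 with one, the 15 rows opposite those 13, and 18 mitosis genes. The first panel separates both tumor groups (243 to 529 and 195 to 277 CPM) from normal brain (46.0 to 83.2 CPM), and the second does not.

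The MCM helicase is a ring of the products of Mcm2 to Mcm7. Of these 6 genes 5, Mcm2 to Mcm6, were called higher in both tumor groups. Of all genes tested 20.2% were called higher in PDGFB tumors and 26.9% in RAS tumors. None of these 5 has an exon opposite. Mcm2 had 14, 6, 10, 16 and 15 reads in the PDGFB tumors, 1, 2, 7, 4 and 6 in the RAS tumors and no read in the 3 normal brains. Mcm3 had 17, 11, 18, 10 and 6 reads in PDGFB tumors, 10, 7, 5, 4 and 11 in RAS tumors and likewise none in normal brain. Against the limit that 3 reads over the normal group allow, Mcm2 was at least 11.4-fold higher in PDGFB tumors (adjusted p = 0.000375) and at least 3.73-fold higher in RAS tumors (adjusted p = 0.00520). For Mcm3 the lower bounds were 11.6-fold in PDGFB tumors and 6.89-fold in RAS tumors, with adjusted p = 0.000176 and 0.000416. These bounds, and those given below as at least, leave out the counting error of the tumor reads. No tumor library of either gene was as low as a normal one.

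Mcm4 had 20, 5, 17, 18 and 15 reads in PDGFB tumors, 7, 9, 10, 10 and 8 in RAS tumors and 0, 1 and 0 in normal brain. Mcm6 had 24, 7, 20, 20 and 18 reads in PDGFB tumors, 11, 7, 4, 13 and 27 in RAS tumors and 0, 1 and 1 in normal brain. For both genes every tumor library lay above every normal one. So few reads in normal brain call for a ratio of summed counts and its 95% interval, which covers counting error only. For Mcm4 it was 42.1 (7.32 to 1683) in PDGFB tumors and 24.6 (4.19 to 993) in RAS tumors, with adjusted p = 0.000124 and 0.000441. For Mcm6 it was 25.0 (6.71 to 209) and 17.3 (4.60 to 146), with adjusted p = 0.000676 and 0.00125.

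Mcm5 had 13, 2, 12, 6 and 10 reads in PDGFB tumors, 5, 7, 5, 6 and 1 in RAS tumors and 1, 1 and 0 in normal brain. Its count ratio to normal brain was 12.1 (3.14 to 103) in PDGFB tumors (adjusted p = 0.00764) and 6.71 (1.66 to 58.5) in RAS tumors (adjusted p = 0.0338). RAS tumor 5, with its single read, overlapped normal brain. The call in RAS tumors was lost without normal library 1, 2 or 3 (adjusted p = 0.0611, 0.0542 and 0.119), and over the alternatives its adjusted p ran from 0.0115 to 0.119.

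The sixth subunit gene, Mcm7, is the one whose exons overlap exons of other genes, Ap4m1 at its start (321 bases) and Cops6 at its end (64 bases). It had 57, 39, 47, 65 and 40 reads in PDGFB tumors, 27, 36, 24, 30 and 30 in RAS tumors and 31, 47 and 51 in normal brain. PDGFB tumors and normal brain overlapped, with a difference of -0.13 ± 0.26 (log2, SE; adjusted p = 0.699), and RAS tumors were called lower than normal brain (-0.75 ± 0.26, adjusted p = 0.0214). That call was lost without RAS library 1, 3 or 4 or normal library 2 or 3 (adjusted p = 0.0701, 0.0552, 0.0558, 0.147 and 0.124), and with no filter (0.117); its adjusted p ran from 0.0181 to 0.147 over the alternatives. Per kb of exon, Mcm7 had 11.2 mean reads per library in PDGFB tumors, 6.64 reads in RAS tumors and 9.72 reads in normal brain. Mcm2 to Mcm6 had 1.75 to 4.18, 0.58 to 2.66 and 0 to 0.17 in the same groups.

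**Figure D3:**
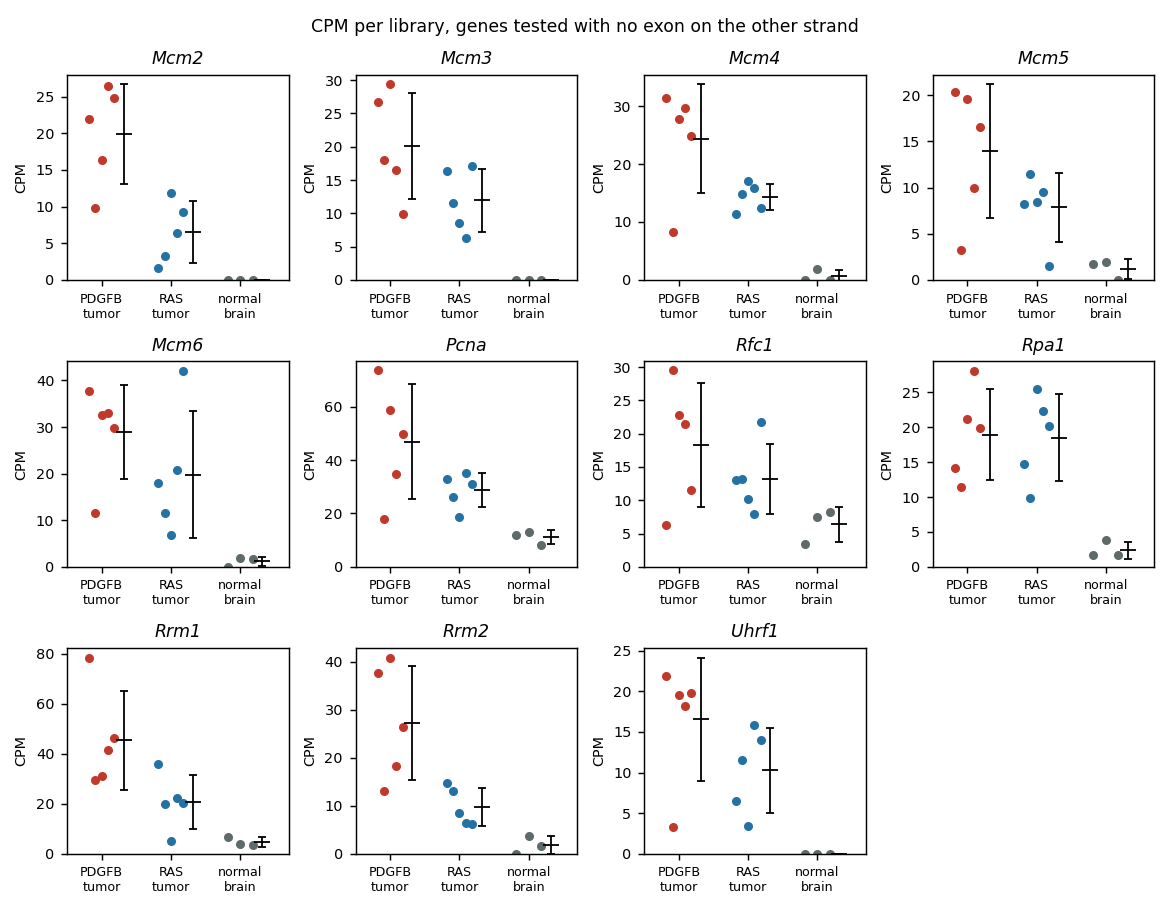
CPM in each library (points) with the mean and SD of each group (bars) for the 11 tested members with no exon opposite. Normal brain lies at or near 0 for Mcm2 to Mcm6, Rrm2 and Uhrf1, and the PDGFB and RAS points overlap in every panel.

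The promoters of the helicase genes were alike in part only. RefSeq windows (GRCm38.p6, from 250 bases before to 50 after the start) were at hand for 35 of the 42 members. Mcm4, Gins1, Gins2, Gins4, Prim2, Pole and Rfc2 had no entry. Each was searched on both strands for the E2F motif, written as TTTCCCGC, TTTCGCGC, TTTGCCGC or TTTGGCGC, and for CCAAT. Matches on the 2 strands can overlap and were counted separately. In the sequences below, 5′ to 3′ on the strand of the gene, capitals mark E2F matches. Mcm3 (chr1:20820263-20820562, minus strand), Mcm5 (chr8:75109259-75109558, plus strand) and Mcm6 (chr1:128359656-128359955, minus strand) are shown because their reads were higher in tumors and their windows match. Mcm7 (chr5:138171834-138172133, minus strand) matches too, though its own row was not called higher, and the first base of Ap4m1 on the other strand (138172002) lies within its window. Mcm2 (chr6:88898731-88899030, minus strand) and Rrm2 (chr12:24708004-24708303, plus strand) were higher in tumors and have no E2F match.
Mcm2: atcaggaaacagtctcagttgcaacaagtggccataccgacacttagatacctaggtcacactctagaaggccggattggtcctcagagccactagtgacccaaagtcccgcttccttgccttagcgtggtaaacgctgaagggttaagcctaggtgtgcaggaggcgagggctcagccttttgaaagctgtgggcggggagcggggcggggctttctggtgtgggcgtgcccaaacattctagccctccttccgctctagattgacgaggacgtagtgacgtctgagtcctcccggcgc
Mcm3: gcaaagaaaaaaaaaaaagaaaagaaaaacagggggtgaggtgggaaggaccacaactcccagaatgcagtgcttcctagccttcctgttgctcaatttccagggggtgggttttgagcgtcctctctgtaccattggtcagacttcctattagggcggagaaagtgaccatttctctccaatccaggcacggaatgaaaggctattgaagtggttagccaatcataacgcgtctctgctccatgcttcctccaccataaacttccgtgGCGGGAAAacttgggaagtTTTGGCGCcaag
Mcm5: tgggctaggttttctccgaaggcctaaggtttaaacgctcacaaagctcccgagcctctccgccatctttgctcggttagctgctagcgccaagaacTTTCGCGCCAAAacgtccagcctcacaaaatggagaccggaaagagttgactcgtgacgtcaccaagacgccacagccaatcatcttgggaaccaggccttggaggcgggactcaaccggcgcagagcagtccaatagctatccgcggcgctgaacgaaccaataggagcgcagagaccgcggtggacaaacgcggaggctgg
Mcm6: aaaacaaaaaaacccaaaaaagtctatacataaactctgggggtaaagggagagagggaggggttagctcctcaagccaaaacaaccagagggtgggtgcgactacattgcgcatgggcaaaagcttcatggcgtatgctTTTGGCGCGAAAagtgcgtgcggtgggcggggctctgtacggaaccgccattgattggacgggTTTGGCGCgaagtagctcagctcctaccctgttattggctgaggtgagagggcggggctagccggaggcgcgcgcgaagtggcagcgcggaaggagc
Mcm7: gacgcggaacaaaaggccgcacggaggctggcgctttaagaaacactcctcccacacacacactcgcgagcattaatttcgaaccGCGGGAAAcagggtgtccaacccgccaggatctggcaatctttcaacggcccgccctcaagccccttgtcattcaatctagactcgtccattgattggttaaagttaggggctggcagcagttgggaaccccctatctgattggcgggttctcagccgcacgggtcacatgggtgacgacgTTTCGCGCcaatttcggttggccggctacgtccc
Rrm2: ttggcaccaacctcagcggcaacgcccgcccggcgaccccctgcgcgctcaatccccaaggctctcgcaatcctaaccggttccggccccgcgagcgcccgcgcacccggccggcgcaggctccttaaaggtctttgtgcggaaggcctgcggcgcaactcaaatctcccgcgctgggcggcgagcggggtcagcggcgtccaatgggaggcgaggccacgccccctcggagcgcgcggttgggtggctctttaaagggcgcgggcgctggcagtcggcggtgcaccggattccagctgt

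The E2F motif was found in 11 of the 35 member promoters (31.4%), those of Cdc6, Cdt1, Gins3, Mcm3, Mcm5, Mcm6, Mcm7, Orc1, Pola1, Pold1 and Rfc3. Mcm6 held 3 matches, and Mcm3, Mcm5 and Mcm7 held 2 each, while Mcm2, the remaining helicase gene with an entry, held none. The share was 24.7% for 73 other genes of replication and nucleotide metabolism, 4.23% for 4636 genes tested and 2.95% for all 16521 protein-coding genes in the table. CCAAT was found in 22 member promoters (62.9%), against 43.8%, 37.6% and 38.8% in those 3 sets. Median GC content was 60% in members, against 61.3%, 62% and 57%. Of the 9 promoters at hand for members with no exon opposite that were called higher in PDGFB tumors, 3 held the E2F motif and 9 held CCAAT. A match describes these letters only.

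**Figure D4:**
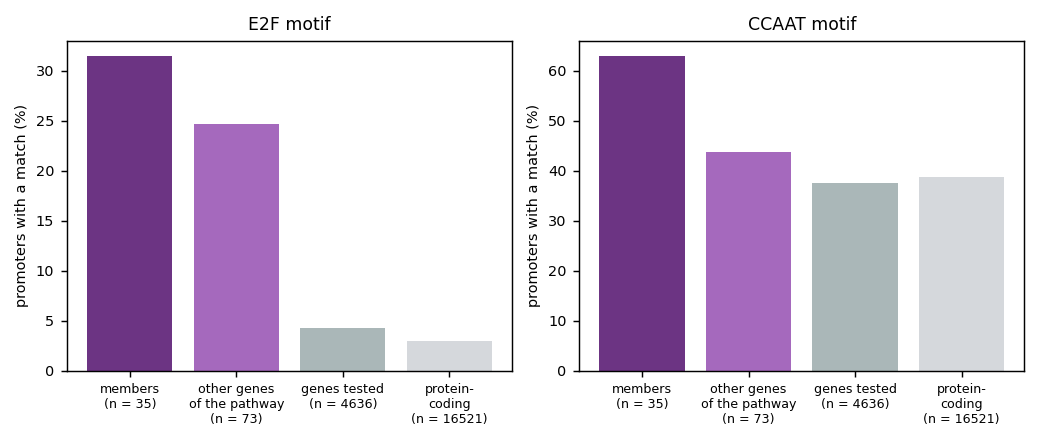
Share of promoters with at least 1 match to the E2F motif (left) or CCAAT (right) on either strand, for members, other genes of the pathway, genes tested and all protein-coding genes. Members stand at 31.4% for E2F and 62.9% for CCAAT, against 2.95% and 38.8% of all protein-coding promoters.

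Among the genes that load and switch on the helicase, reads were few. Orc1, the largest subunit of ORC, had 4, 15, 12, 9 and 6 reads in PDGFB tumors, 12, 12, 16, 3 and 5 in RAS tumors and 2, 1 and 5 in normal brain. The tumor groups overlapped normal brain. The fitted difference from normal brain was 1.43 ± 0.67 (log2, SE; adjusted p = 0.0925) in PDGFB tumors, and in RAS tumors it was called at 1.62 ± 0.67 (adjusted p = 0.0470). The RAS call was lost without PDGFB library 5, RAS library 1 or 3 or normal library 1 or 2 (adjusted p = 0.0518, 0.0652, 0.0905, 0.125 and 0.145). It ran from 0.0143 to 0.145 over the alternatives.

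The licensing factors Cdt1 and Cdc6 had no read in normal brain. Cdt1 had 3, 3, 4, 5 and 3 reads in PDGFB tumors and 0, 1, 7, 7 and 1 in RAS tumors. Cdc6 had 2, 2, 2, 0 and 2 in PDGFB tumors and 0, 1, 1, 0 and 0 in RAS tumors. Cdt1 was thus at least 3.37-fold higher in PDGFB tumors and at least 2.98-fold higher in RAS tumors than the normal limit, and with no filter it was called in both (adjusted p = 0.0111 and 0.0113). Orc6, another ORC subunit, had 3 to 10, 2 to 10 and 1 to 5 reads in PDGFB tumors, RAS tumors and normal brain.

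Mcm10 and Cdc45, which act as the helicase is switched on, had no read in normal brain either. Mcm10 had 10, 1, 8, 2 and 4 reads in PDGFB tumors and 1, 6, 0, 2 and 5 in RAS tumors, and with no filter it was called in both (adjusted p = 0.00243 and 0.0168). Cdc45 had 6, 5, 1, 7 and 0 reads in PDGFB tumors and 7, 2, 6, 4 and 3 in RAS tumors (adjusted p = 0.00792 and 0.00258 with no filter). Gins1, Gins3 and Gins4, of the GINS complex, had 0 to 5 reads in any library. Gins2, the remaining GINS gene, stood apart with 360 to 515 reads in PDGFB tumors, 420 to 612 in RAS tumors and 377 to 416 in normal brain. Its groups overlapped, and 67.3% of its exon bases lie opposite exons of Gse1.

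The polymerase and primase genes were low in every library, and none of the 6 passed the filter. Prim2, the large primase subunit, had 7, 2, 5, 7 and 8 reads in PDGFB tumors, 1, 4, 4, 3 and 0 in RAS tumors and none in normal brain. It was at least 5.42-fold higher in PDGFB tumors and at least 2.24-fold higher in RAS tumors (adjusted p = 0.00105 and 0.0266 with no filter). The catalytic primase subunit Prim1 had 12, 1, 4, 5 and 6 reads in PDGFB tumors, 4, 1, 1, 0 and 2 in RAS tumors and 0, 0 and 2 in normal brain, and only its difference between PDGFB tumors and normal brain was called with no filter (adjusted p = 0.0405). Pole, the catalytic subunit of polymerase epsilon, had 9, 3, 2, 2 and 5 reads in PDGFB tumors, 3, 7, 6, 3 and 4 in RAS tumors and 0, 0 and 1 in normal brain (adjusted p = 0.0381 and 0.0163 with no filter). Pola1 and Pola2, of polymerase alpha, had 2 to 9 reads in PDGFB tumors, 0 to 8 in RAS tumors and 0 to 7 in normal brain. Pold1, of polymerase delta, had 0 to 3, 0 to 3 and 0 to 2.

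Pcna, the sliding clamp, was higher in both tumor groups. It had 47, 11, 36, 21 and 30 reads in PDGFB tumors, 20, 16, 11, 22 and 20 in RAS tumors and 7, 7 and 5 in normal brain. No tumor library reached down to the normal ones, and PDGFB and RAS tumors overlapped. Pcna was 3.58-fold higher in PDGFB tumors (log2 1.84 ± 0.45 SE, adjusted p = 0.00299) and 2.42-fold higher in RAS tumors (1.27 ± 0.46, adjusted p = 0.0257). The RAS call was lost without normal library 3 (adjusted p = 0.0856), and over the alternatives its adjusted p ran from 0.00980 to 0.0856. Per kb of exon Pcna had 12.1 mean reads per library in PDGFB tumors, 7.42 reads in RAS tumors and 2.64 reads in normal brain.

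The rows of the RFC genes, which encode the clamp loader, did not move as a group. Rfc2, Rfc4 and Rfc5 have an exon opposite, in Lat2, Eif4a2 and Wsb2, and their rows may hold reads of these genes. Rfc1, the large subunit, had 4 to 18 reads in PDGFB tumors, 5 to 14 in RAS tumors and 2 to 5 in normal brain, with adjusted p = 0.0767 and 0.173 against normal brain. Rfc3 had 4, 3, 5, 2 and 4 reads in PDGFB tumors, 0, 1, 3, 0 and 5 in RAS tumors and none in normal brain (adjusted p = 0.0137 in PDGFB tumors with no filter). Rfc4 had 1 to 9, 2 to 7 and 3 to 5 reads. Rfc5 had 801 to 1197, 830 to 1082 and 797 to 926 reads and overlapped between all groups. Mean reads per kb of exon in the Rfc5 row were 200 for PDGFB tumors, 206 for RAS tumors and 186 for normal brain, the highest of the 42 members. Of its exon bases 10.7% lie opposite exons of Wsb2, and whether Rfc5 itself is at this level was not tested.

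Rfc2 had the smallest adjusted p of the members between the tumors. It had 78, 90, 88, 87 and 100 reads in PDGFB tumors, 154, 213, 226, 312 and 378 in RAS tumors and 13, 12 and 19 in normal brain, and the 3 groups did not overlap. It was 4.79-fold higher in PDGFB tumors (adjusted p = 2.95e-05) and 15.3-fold higher in RAS tumors (adjusted p = 1.09e-07) than in normal brain. PDGFB tumors were 3.19-fold lower than RAS tumors (log2 -1.67 ± 0.23 SE, adjusted p = 3.77e-05). Of its exon bases 15.1% lie opposite exons of Lat2, an adaptor of immune cells, which are the last part of Lat2 to be transcribed on the other strand. The row of Lat2 had 6 to 20 reads in PDGFB tumors, 1 to 13 in RAS tumors and 0 to 6 in normal brain. Whether the reads of the Rfc2 row, and so its folds, belong to Rfc2 or to Lat2 was not tested. Markers of macrophages and microglia summed to 325 to 427 CPM in PDGFB tumors, 614 to 949 CPM in RAS tumors and 354 to 400 CPM in normal brain. Of the 7 of these markers tested, 6 were called lower in PDGFB than in RAS tumors (17.4% of all genes tested were). Their part in the Rfc2 row was not tested.

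Among genes that protect single strands and join Okazaki fragments, Rpa1 was higher in both tumor groups. Rpa1, the large subunit of the single-strand binding protein, had 9, 7, 13, 17 and 12 reads in PDGFB tumors, 9, 6, 15, 14 and 13 in RAS tumors and 1, 2 and 1 in normal brain. It was 6.46-fold and 6.99-fold higher in PDGFB and RAS tumors (adjusted p = 0.00146 and 0.000668), with no overlap with normal brain. Rpa2 and Rpa3 had 1 to 7 reads in PDGFB tumors, 0 to 5 in RAS tumors and 0 to 3 in normal brain. Fen1, the flap nuclease, had 2 to 8, 3 to 9 and 1 to 2 reads.

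The row of Lig1, the ligase that seals Okazaki fragments, was lower in RAS tumors than in the other groups. It had 43, 21, 30, 28 and 26 reads in PDGFB tumors, 12, 11, 11, 7 and 4 in RAS tumors and 21, 15 and 23 in normal brain. RAS tumors overlapped neither group, while PDGFB tumors overlapped normal brain, with a difference of 0.26 ± 0.32 (log2, SE; adjusted p = 0.526). RAS tumors were 2.47-fold lower than normal brain (adjusted p = 0.00364), and PDGFB tumors 2.96-fold higher than RAS tumors (adjusted p = 0.000696). The first 247 exon bases of Lig1 lie opposite Zswim9, whose own row had 0 to 6 reads in any library. Whether the Lig1 row holds reads of Zswim9 was not tested.

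Of the 5 nucleotide synthesis genes, 4 were called higher in PDGFB tumors and 3 in RAS tumors with no filter (8.37% and 11.6% of all genes were). Rrm1, Rrm2 and Tk1 passed the filter. Rrm1, the large subunit of ribonucleotide reductase, had 50, 18, 19, 25 and 28 reads in PDGFB tumors, 22, 12, 3, 14 and 13 in RAS tumors and 4, 2 and 2 in normal brain. Rrm2, its small subunit, had 24, 8, 25, 11 and 16 reads in PDGFB tumors, 9, 8, 5, 4 and 4 in RAS tumors and 0, 2 and 1 in normal brain. PDGFB tumors lay above normal brain in every library for both genes, while RAS tumor 3 overlapped normal brain for Rrm1. Rrm1 was 8.02-fold higher in PDGFB tumors (adjusted p = 0.000470) and 4.04-fold higher in RAS tumors (adjusted p = 0.00956). The count ratio of Rrm2 to normal brain was 15.7 (95% counting interval 5.19 to 77.7) in PDGFB tumors and 5.59 (1.74 to 28.6) in RAS tumors (adjusted p = 0.000461 and 0.0190). The RAS call for Rrm2 was lost without normal library 1 or 3 (adjusted p = 0.0763 and 0.0519), and over the alternatives it ran from 0.0135 to 0.0763.

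Tk1, thymidine kinase of the salvage pathway, had 21, 16, 14, 12 and 19 reads in PDGFB tumors, 21, 11, 11, 7 and 8 in RAS tumors and 4, 3 and 8 in normal brain. PDGFB tumors lay above normal brain in every library, and RAS tumors overlapped it. Tk1 was 2.58-fold higher in PDGFB tumors (adjusted p = 0.0170), and the fitted difference in RAS tumors was 1.01 ± 0.45 (log2, SE; adjusted p = 0.0662). The PDGFB call was lost without normal library 1 or 2 (adjusted p = 0.0514 and 0.0556; range 0.00381 to 0.0556 over the alternatives). The RAS difference was called without RAS library 2, 4 or 5 or normal library 3 (adjusted p = 0.0452, 0.0293, 0.0325 and 0.0321; range 0.0293 to 0.173). Tyms, thymidylate synthase, had 2, 1, 7, 2 and 5 reads in PDGFB tumors, 3, 5, 3, 1 and 6 in RAS tumors and none in normal brain. It was at least 3.18-fold and 3.35-fold higher in PDGFB and RAS tumors (adjusted p = 0.0132 and 0.00719 with no filter). Dut, which removes dUTP, had 3 to 12 reads in PDGFB tumors, 2 to 6 in RAS tumors and 3 to 5 in normal brain, and was called in neither (adjusted p = 0.314 and 0.937 with no filter).

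The last group copies chromatin or drives transcription of the others. Uhrf1, which helps copy DNA methylation, had 14, 2, 12, 11 and 12 reads in PDGFB tumors, 4, 7, 2, 10 and 9 in RAS tumors and none in normal brain. It was at least 9.53-fold higher in PDGFB tumors and at least 5.96-fold higher in RAS tumors (adjusted p = 0.00112 and 0.00230). Chaf1b, of the histone chaperone CAF-1, had 10, 4, 9, 3 and 5 reads in PDGFB tumors, 3, 0, 2, 8 and 2 in RAS tumors and none in normal brain (adjusted p = 0.000628 and 0.0121 with no filter). E2f1 had 3, 6, 5, 3 and 3 reads in PDGFB tumors, 6, 5, 6, 9 and 9 in RAS tumors and 0, 1 and 1 in normal brain. With no filter it was called in RAS tumors (adjusted p = 0.00530), while the value for PDGFB tumors was 0.108.

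Chaf1a, the large subunit of CAF-1, had 624, 688, 629, 675 and 587 reads in PDGFB tumors, 672, 619, 789, 809 and 942 in RAS tumors and 767, 760 and 850 in normal brain. PDGFB tumors lay below normal brain in every library and were called lower (log2 -0.64 ± 0.16 SE, adjusted p = 0.00366; range 0.000826 to 0.0706 over the alternatives). RAS tumors overlapped normal brain (-0.24 ± 0.16, adjusted p = 0.218). Of the exon bases of Chaf1a 52.5% lie opposite exons of Ubxn6. With no filter on low counts the PDGFB call was lost (adjusted p = 0.0706).

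Many rows of the genes on the other strand of the 13 members were higher in tumors. The 15 opposite rows summed to 2212 to 3857 CPM in PDGFB tumors, 2018 to 2527 CPM in RAS tumors and 943 to 952 CPM in normal brain. Of the 11 that passed the filter, 8 were called higher and 0 lower in PDGFB tumors, and 7 and 0 in RAS tumors (20.2% and 26.9% of all genes tested were called higher). With no filter 8 and 7 of all 15 were called higher and 0 lower, where 8.37% and 11.6% of genes were higher. Which gene of a pair the reads belong to was not tested, and the row of a member may hold reads of its partner.

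Ubxn6, a cofactor of the p97 ATPase and the row opposite Chaf1a, had 448, 168, 372, 236 and 332 reads in PDGFB tumors, 173, 187, 211, 172 and 292 in RAS tumors and 32, 33 and 34 in normal brain. Its log2 fold change was 2.90 ± 0.32 (SE) in PDGFB tumors and 2.45 ± 0.32 in RAS tumors, with no overlap with normal brain. Gse1, opposite Gins2, had 108, 34, 85, 70 and 101 reads in PDGFB tumors, 54, 59, 68, 65 and 63 in RAS tumors and 14, 21 and 19 in normal brain (1.80 ± 0.35 and 1.57 ± 0.35). Both rows were higher in every tumor library than in any normal one, while their partners Chaf1a and Gins2 were not.

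Opposite Mcm7, Cops6, of the COP9 signalosome, had 133, 64, 98, 94 and 106 reads in PDGFB tumors, 74, 60, 92, 64 and 102 in RAS tumors and 8, 8 and 17 in normal brain. Its log2 fold changes were 2.83 ± 0.34 and 2.64 ± 0.34 (SE) in PDGFB and RAS tumors. Ap4m1, of an adaptor complex for vesicle transport, had 331 to 440 reads in PDGFB tumors, 277 to 351 in RAS tumors and 162 to 206 in normal brain (0.74 ± 0.17 and 0.60 ± 0.17). Neither overlapped normal brain, whereas Mcm7 between them did.

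Gm10143, an antisense gene whose exons cover 78.8% of the exon bases of Fen1, had 1005, 415, 743, 634 and 758 reads in PDGFB tumors, 534, 411, 429, 464 and 642 in RAS tumors and 139, 132 and 167 in normal brain. Fen1 itself had 23 reads in PDGFB tumors, 24 reads in RAS tumors and 4 reads in normal brain, summed over each group. Gm12743, opposite Orc1, had 35, 19, 23, 16 and 17 reads in PDGFB tumors, 19, 14, 6, 17 and 13 in RAS tumors and 1, 0 and 0 in normal brain. Gm15792, opposite Pole, had 48, 23, 45, 32 and 30 reads in PDGFB tumors, 19, 17, 19, 24 and 22 in RAS tumors and 4, 1 and 1 in normal brain. All 3 were called higher in both tumor groups, with adjusted p between 9.46e-06 and 5.81e-05, and the count ratio of Gm12743 was 61.7 (95% counting interval 10.8 to 2459) in PDGFB tumors and 38.6 (6.69 to 1545) in RAS tumors.

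The remaining opposite rows differed less or were too low. Lat2, opposite Rfc2, was called higher in PDGFB tumors (1.91 ± 0.68, adjusted p = 0.0280) and not in RAS tumors (1.25 ± 0.71, adjusted p = 0.143). The PDGFB call was lost without normal library 2 or 3 (adjusted p = 0.0946 and 0.0585). Vps35, opposite Orc6, Wsb2, opposite Rfc5, and Eif4a2, opposite Rfc4, were tested and not called against normal brain in either tumor group. Ufd1, Tmem258, Zswim9 and Afmid, opposite Cdc45, Fen1, Lig1 and Tk1, did not pass the filter. Afmid had no read in 11 of the 13 libraries.

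**Figure D5:**
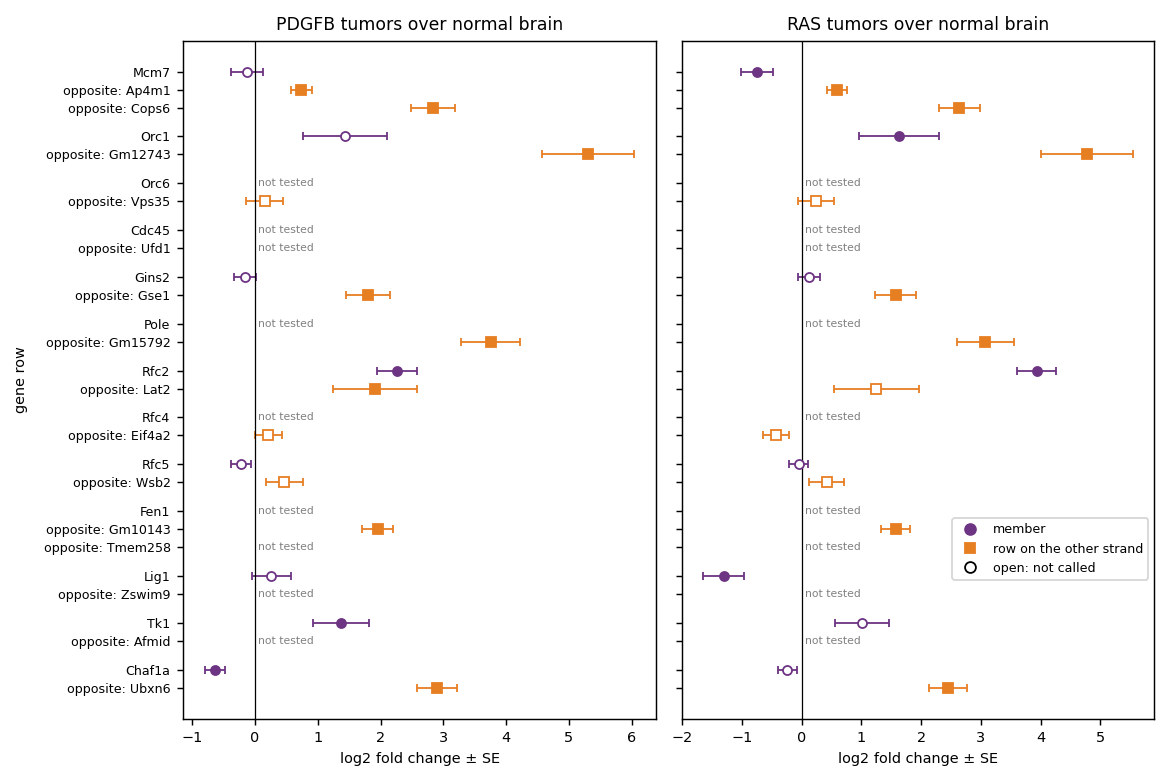
Log2 fold change with its SE for the 13 members with an exon opposite (circles) and the rows opposite them (squares), in PDGFB tumors (left) and RAS tumors (right) over normal brain; filled symbols were called. For Mcm7, Gins2 and Chaf1a the member lies near or below 0 and the opposite row above it, while Rfc2 lies above 0 in both panels.

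Between PDGFB and RAS tumors few members differed. Of the 19 tested, 4 were called higher in PDGFB tumors, Mcm2, Mcm7, Lig1 and Rrm2 (14.6% of all genes tested were called higher), and 2 lower, Rfc2 and Chaf1a (17.4%). With no filter 4 of 42 were higher, Mcm2, Lig1, Rrm1 and Rrm2, and 1 lower, Rfc2 (6.74% and 6.69%), so the share called higher was not far from that of all genes. The median log2 fold change in that fit was 0.45 for the members and 0 for all genes. In CPM, PDGFB and RAS tumors did not overlap for 3 higher members and 1 lower member of the 42 (4.72% and 3.96% of the 23301 genes). Scaling by library totals in place of the trimmed mean of M values moved the median of all genes by 0.14 between the tumors, 0.23 for PDGFB tumors against normal brain and 0.093 for RAS tumors against normal brain (log2).

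Mcm2 averaged 19.9 ± 6.80 CPM in PDGFB tumors and 6.50 ± 4.22 CPM in RAS tumors (SD, n = 5 each), a log2 difference of 1.44 ± 0.49 (SE, adjusted p = 0.0335 by edgeR). Rrm2 averaged 27.2 ± 11.97 CPM in PDGFB tumors and 9.79 ± 3.93 CPM in RAS tumors, a difference of 1.34 ± 0.42 (adjusted p = 0.0202). Both genes overlapped between the tumors. The Mcm2 call was lost without RAS library 1, 2 or 4 (adjusted p = 0.0706, 0.0551 and 0.0627; range 0.0194 to 0.0706), and the Rrm2 call without PDGFB library 1 or 3 (adjusted p = 0.0591 and 0.0592; range 0.00996 to 0.0592). Rrm1 averaged 45.3 ± 19.8 CPM in PDGFB tumors and 20.7 ± 11.0 CPM in RAS tumors, with an adjusted p of 0.0515 that ran from 0.0221 to 0.178 over the alternatives. It was called by limma-voom, with the replicate block, with no filter, with median-of-ratios factors, with 1 CPM in 5 libraries, with scaling by library totals and among genes with no exon opposite alone (adjusted p = 0.0374, 0.0313, 0.0221, 0.0487, 0.0413, 0.0298 and 0.0243). It was also called without PDGFB library 2 or 3, RAS library 1 or normal library 1 or 2 (adjusted p = 0.0399, 0.0412, 0.0235, 0.0457 and 0.0485).

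The difference in Mcm7 was 0.62 ± 0.23 (log2, SE; adjusted p = 0.0476), and every PDGFB tumor lay above every RAS tumor. The call was lost without PDGFB library 1, 3 or 4, RAS library 1, 3, 4 or 5 or normal library 3 (adjusted p = 0.0532 to 0.118). Chaf1a differed by -0.40 ± 0.14 (adjusted p = 0.0388), and its call was lost without any 1 library other than RAS library 1 or 2 (adjusted p = 0.0520 to 0.108). Library totals also ended it (-0.25, adjusted p = 0.148). Pcna was not called (0.57 ± 0.33, adjusted p = 0.198) and passed without PDGFB library 2 (adjusted p = 0.0479).

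PDGFB tumor 2 was low for many members with no exon opposite. Over the 13 members with one it had the highest sum of the PDGFB tumors (4272 CPM against 3247 to 3708 CPM). Summed over the 29 genes with no exon opposite, PDGFB tumor 2 stood at 243 CPM and the other 4 at 365 to 529 CPM, while the RAS tumors stood at 195 to 277 CPM. PDGFB tumor 2 was the lowest of the 5 in 16 of the 29 genes, and PDGFB tumor 1 the highest in 13. A list of 18 mitosis genes summed to 552 CPM in PDGFB tumor 2 and 806 to 966 CPM in the other 4, and the opposite rows to 2212 and 2715 to 3857 CPM. Without PDGFB tumor 2, 6 of the 19 members were called higher in PDGFB than in RAS tumors, and without PDGFB tumor 1 only 1 was. With no filter, 15 of the 18 mitosis genes were called higher in PDGFB tumors and 14 in RAS tumors than in normal brain (8.37% and 11.6% of all genes were); of the 9 that passed the filter it was 8 and 7 (20.2% and 26.9%). Over the whole list PDGFB tumors held 552 to 966 CPM, RAS tumors 404 to 619 CPM and normal brain 195 to 268 CPM. Most of these reads lay in Kif20a, a mitotic kinesin, with 1472, 978 and 355 reads in the 3 groups. The mitosis and cell type lists were not split by exons on the other strand, so some of their rows may hold reads of other genes. Mki67, a marker of cycling cells, had 196 reads in PDGFB tumors, 58 reads in RAS tumors and 5 reads in normal brain.

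Beside the members stands a wider list of 90 genes of replication and nucleotide metabolism. Of the 43 that passed the filter, 12 were higher and 4 lower in PDGFB tumors against normal brain (20.2% and 25.1% of all genes tested), 15 higher and 6 lower in RAS tumors (26.9% and 29.3%), and 8 higher and 5 lower in PDGFB than in RAS tumors (14.6% and 17.4%). Among these 43 the shares called higher were thus not far from those of all genes. With no filter 23 of the 90 were higher and 2 lower in PDGFB tumors (8.37% and 9.69%), 20 and 4 in RAS tumors (11.6% and 12.9%), and 12 and 3 between the tumors (6.74% and 6.69%). In that fit the shares called higher lay above those of all genes. The difference between this list and the members was not tested. Gmnn, geminin, the inhibitor of Cdt1, averaged 16.3 ± 5.06 CPM in PDGFB tumors, 2.60 ± 1.87 CPM in RAS tumors and had no read in normal brain. It was at least 9.35-fold higher in PDGFB tumors than in normal brain (adjusted p = 0.000547) and 5.36-fold higher than in RAS tumors (adjusted p = 0.00412). Gmnn had 8 reads over the RAS tumors, 1.49-fold above the limit of 3 reads over the normal group, leaving out the counting error of those 8. RAS tumors overlapped normal brain, and the gene was called higher in them (adjusted p = 0.0422, range 0.0159 to 0.150 over the alternatives).

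Samhd1, which breaks down deoxynucleotides, had no read in normal brain and averaged 9.42 ± 4.62 CPM in PDGFB tumors and 15.3 ± 10.4 CPM in RAS tumors (adjusted p = 0.0102 and 0.00157 against normal brain). Dck, deoxycytidine kinase, averaged 18.8 ± 2.92 CPM in PDGFB tumors, 3.93 ± 2.46 CPM in RAS tumors and 2.30 ± 0.876 CPM in normal brain. Dck was 6.47-fold higher in PDGFB tumors than in normal brain and 4.23-fold higher than in RAS tumors (adjusted p = 0.00222 and 0.00263). Shmt2, of mitochondrial one-carbon metabolism, was 5.51-fold higher in PDGFB tumors than in normal brain, with an exon opposite in Ndufa4l2. Mthfd2, of the same pathway, was higher in RAS tumors than in normal brain (adjusted p = 0.00180).

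Several of the named pathway genes that were lower have an exon opposite. Chtf18, of an alternative clamp loader, lies opposite Gng13 and averaged 66.8 ± 29.3 CPM in PDGFB tumors, 26.1 ± 39.7 CPM in RAS tumors and 504 ± 9.70 CPM in normal brain. Orc3, with no exon opposite, was 1.87-fold lower in PDGFB tumors (adjusted p = 0.0357; range 0.00841 to 0.200) and 3.35-fold lower in RAS tumors (adjusted p = 0.000369). Rnaseh2c, Rnaseh2b and Orc4 were also lower in a tumor group than in normal brain, opposite Kat5, Dleu7 and, for Orc4, Acvr2a and Mbd5. Rnaseh2b, of ribonuclease H2, was 5.44-fold higher in PDGFB than in RAS tumors (adjusted p = 0.000299), and Nasp, a histone chaperone, 2.55-fold higher (adjusted p = 0.00635). The purine genes Aprt and Adss, with no exon opposite, were 4.77-fold and 2.99-fold lower in PDGFB than in RAS tumors (adjusted p = 0.00947 and 0.000631). The histone-binding genes Rbbp4 and Rbbp7 were 2.26-fold and 1.69-fold lower (adjusted p = 0.00111 and 0.0246), and each has an exon opposite.

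Cell type markers moved with these comparisons. Against normal brain, all 10 neuron markers were called lower in PDGFB tumors and 7 of 10 in RAS tumors (25.1% and 29.3% of all genes tested were). They summed to 227 to 636 CPM in PDGFB tumors, 3943 to 8530 CPM in RAS tumors and 5538 to 5954 CPM in normal brain, so RAS tumors overlapped normal brain. Most of these reads lay in Nefm, a neurofilament gene, with 844, 15666 and 7160 reads over the 3 groups; Nefm and Nefl were not called in RAS tumors (log2 0.19 and 0.64, adjusted p = 0.582 and 0.122). Of 6 tested markers of mature oligodendrocytes, 5 were lower in PDGFB tumors and 6 in RAS tumors (25.1% and 29.3% of all genes tested). All 7 markers of oligodendrocyte precursors were called higher in PDGFB than in RAS tumors, where 14.6% of all genes tested were. These 7 summed to 766 to 1057 CPM in PDGFB tumors, 103 to 370 CPM in RAS tumors and 126 to 146 CPM in normal brain. Astrocyte markers summed to 210 to 507, 114 to 650 and 616 to 785 CPM in the same groups. In each tumor group 3 of these 7 were called lower than in normal brain (25.1% of all genes tested in PDGFB tumors and 29.3% in RAS tumors). Markers of T and NK cells were at or near 0, and Cd8a, Cd2, Nkg7 and Trac had no read in any library. None of the 6 endothelial markers passed the filter. They summed to 3.31 to 28.1 CPM in PDGFB tumors, 22.1 to 62.2 CPM in RAS tumors and 11.6 to 15.3 CPM in normal brain, with no overlap between RAS tumors and normal brain. With no filter Cldn5 was called higher in RAS tumors than in normal brain (adjusted p = 0.0237) and Cdh5 lower in PDGFB than in RAS tumors (adjusted p = 0.0263). The part of these cells in the member differences was not tested.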

How the data were processed

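Polyadenylated RNA was isolated with Trizol and made into libraries with a TruSeq RNA kit, per the labels' protocols. The tools listed in the submitters' processing notes are STAR 2.7.9a and fastp 0.22.0, with GRCm38 as build; the annotation, the counter and its strand setting are not given in the sources used here. The deposited values are raw counts per Ensembl gene, with no normalization by the authors.

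Groups came from titles (tumors) and the tissue label (normal brain); 1 normal title begins with other letters. GENCODE M21 held 52135 of the 55416 genes. The members and all lists were chosen with earlier results of these data known. Genes were tested with edgeR 4.0.16 (R 4.3.3): filterByExpr (minimum count 10, minimum total 15), TMM factors, a quasi-likelihood fit over all 13 libraries, and Benjamini-Hochberg adjustment. The scripts were tested on simulated data. The base of CPM was the sum of gene counts. Where a group had no read, the fold is a lower bound set by 3 reads over that group. Intervals take in counting error alone, because reads were summed over each group. Bounds take in that of the group with no read only. PCR copies carry no molecular identifiers, so copies and separate molecules cannot be told apart. Normal samples may share animals, so p-values measure the spread between these libraries.

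Named were all members that passed the filter, with every library's reads where called; other members by range, with the reads of those named in full chosen after values were seen; opposite rows; and up to 4 higher and 4 lower called pathway genes per comparison with the largest change. A few of these pathway genes are not reported here; list counts still include them. Alternatives were no filter, library totals, median-of-ratios factors, 1 CPM in 5 libraries, an adjusted p under 0.01, genes with no exon opposite alone, DESeq2 1.42.0, limma-voom (limma 3.58.1), fits of 2 groups alone, the replicate number as a block between tumors, and leaving out each library. Reading the opposite row for a member with an exon opposite was added after seeing the data. Promoter windows came from RefSeq (GRCm38.p6).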

Additional observations from a re-analysis of the deposited data

Results flagged for a closer look

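In 60 groups of 5 tumor libraries (the members and opposite rows tested), 4 held a library whose gap to its neighbours passed Dixon's 95% value, and chance alone flags about 1 in 20 such groups. In all 4 the library was PDGFB tumor 2, at the low end. Mcm4, of the helicase, stood at 8.21 CPM there and at 24.8 to 31.4 CPM in the other 4 PDGFB tumors. Uhrf1, which helps copy DNA methylation, stood at 3.28 CPM against 18.2 to 22.0 CPM. Lat2, the row opposite Rfc2, stood at 9.85 CPM against 27.7 to 33.1 CPM, and Eif4a2, the row opposite Rfc4, at 140 CPM (139.6) against 218 to 238 CPM.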

How the results depend on the processing

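Calls of members as higher than normal brain kept their direction under every alternative run, and their number depended on the filter. For PDGFB tumors against normal brain 12 higher became 21 with no filter, 20 with 1 CPM in 5 libraries and 17 with opposite rows read, and 1 lower became 0 with no filter, with genes with no exon opposite alone and with opposite rows read. For RAS tumors against normal brain 12 higher became 20 with no filter, 20 with 1 CPM in 5 libraries, 7 with limma-voom and 5 in the fit of 2 groups alone. Opposite rows gave 16. The 2 lower became 1 with no filter, with 1 CPM in 5 libraries, at an adjusted p under 0.01 and in the fit of 2 groups alone, and 0 with genes with no exon opposite alone and with opposite rows read. Between PDGFB and RAS tumors 4 higher became 1 at an adjusted p under 0.01, 2 in the fit of 2 groups alone and 3 with opposite rows. The 2 lower became 1 with library totals, median-of-ratios factors, no filter, 1 CPM in 5 libraries, an adjusted p under 0.01 and 2 groups alone, and 0 with genes with no exon opposite alone and with opposite rows read. Fewer genes or samples enter the fits of a class or of 2 groups alone; otherwise the cause was not tested.

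With each library left out in turn, members called ran from 10 to 13 higher and 1 to 1 lower for PDGFB tumors against normal brain, from 9 to 13 and 1 to 2 for RAS tumors against normal brain, and from 1 to 6 and 1 to 2 between the tumors. The lowest count between the tumors, 1, came without PDGFB library 1, and the highest, 6, without PDGFB library 2; it was 2 without PDGFB library 4 or RAS library 4.

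Same-numbered PDGFB and RAS tumors showed little shared deviation (correlations 0.139, -0.0180, -0.0243, -0.128 and 0.0803 for numbers 1 to 5). Number 1 correlated best with its own. These values cannot exclude a shared litter, batch or day, and the titles do not say what the number marks. With the replicate number as a block, 2 members were called higher and 1 lower between the tumors.

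Of the single-gene values, 1781 kept direction and side of the threshold, 77 lost it, 29 gained it and 29 turned in sign. Those that turned were not called in any fit. With library totals the log2 fold change became 0.10 for Mcm7, 0.076 for Gins2 and 0.0065 for Rfc5 in PDGFB tumors against normal brain, 0.043 for Rfc5 in RAS tumors, and between the tumors 0.031 for Rpa1 and 0.052 for Vps35. Mcm7 in PDGFB tumors was 0.0037 with 1 CPM in 5 libraries. Rfc5 in RAS tumors was 0.0025 with no filter, 0.0043 with 1 CPM in 5 libraries and 0.019 in the fit of 2 groups alone, and Wsb2 between the tumors was -0.013 by limma-voom. With 1 library left out, the range ran from -0.23 to 0.11 for Mcm7 in PDGFB tumors against normal brain and from -0.056 to 0.11 for Rfc5 in RAS tumors against normal brain. Between the tumors it ran from -0.43 to 0.091 for Orc1, -0.30 to 0.032 for Rpa1, -0.23 to 0.012 for Vps35 and -0.054 to 0.24 for Wsb2.

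At 529162 to 643055 counted reads per library, 23 members with 10 to 72 reads over all libraries stayed under the filter, and a difference in them can be missed.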
